A study of Mus musculus with 12 samples.

Results

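The neuronal genes described here are 32 genes of nerve cells, from structural proteins of the axon to transcription factors of sensory neurons. They were chosen by gene symbol, though with earlier results of these data known, and all 32 were found among the 56691 gene rows of each library. Their counts were followed in RNA sequencing of palatal shelves, a pair of tissue ledges that grow from the maxilla and fuse into the palate, taken from mouse embryos at gestational day 12. There were 12 libraries in 4 groups of 3, and each library came from a pool of 2 embryos of 1 genotype, per the labels' protocols, while the series' design text speaks of 3 pooled animals. The series concerns DNA methylation, cranial neural crest cells and orofacial clefts.

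The knockout embryos were untreated and lacked Dnmt1 conditionally. This methyltransferase restores CpG methylation on the new strand after replication. The AzadC embryos were wild type and exposed to 5-aza-2'-deoxycytidine, which is built into DNA in place of cytidine and traps the methyltransferases there. The vehicle embryos were wild type and received what AzadC was given in, and the control embryos were wild type and untreated. The sources used here do not give the Cre driver, the deleted exons, the strains, or the dose, route and time of AzadC, so which cells of the shelf lost Dnmt1 is not known from them. The question each pair of groups addresses is how loss of Dnmt1, or its block by AzadC, alters RNA levels in the shelf.

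Nerve fibres reach the palatal shelves from the trigeminal ganglion, whose sensory neurons lie outside the shelf, and from parasympathetic neurons that arise from the cranial neural crest. A neuron's nucleus and most of its RNA stay in the ganglion, and axons carry only a limited set of transcripts. Several of the 32 genes are also used outside neurons at this age: Gap43, Ncam1, Map2 and Nsg1 in other embryonic cells, and Isl1 in non-neuronal progenitors. In many non-neuronal cells, neuronal genes are held off by the repressor REST and its partners.

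The 12 libraries held between 12640536 (AzadC 1) and 33113790 (control 1) expected counts. A library's level is given in CPM, counts brought to a common total with TMM scaling, which compares 1 gene between libraries. TPM, the deposited per-length value, is used to set genes beside each other. The deleted gene checked the labels: Dnmt1 had 201, 180 and 191 CPM in the knockout, 408, 482 and 411 CPM in AzadC, 452, 451 and 448 CPM in the vehicle and 286, 278 and 258 CPM in the control libraries. It was lowest in the knockout (log2 change against the control -0.52 ± 0.07 SE, edgeR adjusted p = 0.00037). The vehicle differed from the control by more than the knockout did, and upward (0.72 ± 0.07, edgeR adjusted p = 0.000286), so the wild type groups were not alike in this gene. AzadC against the vehicle was not called (-0.05 ± 0.07, edgeR adjusted p = 0.955). All 19 palatal mesenchyme markers examined averaged above 1 CPM. The summed macrophage markers were higher in all 3 knockout libraries than in any other library, and muscle markers ranged over many fold between libraries of 1 group. Their values are given with the other cell types.

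The name "neuronal" was checked against the levels. By mean TPM over the 12 libraries the order began with Nsg1 (89.9), Gap43 (86.4), Ncam1 (23.1), Map2 (21.1) and Tubb3 (10.2). It went on with Isl1 (6.98), L1cam (5.27), Elavl2 (4.69), Nefm (4.61), Stmn2 (4.09), Nefl (3.54), Dcx (3.21), Rtn1 (2.67), Elavl4 (2.46), Syp (1.88), Celf3 (1.7) and Ret (1.13). The other 15 genes were below 1 TPM, among them Snap25 at 0.2, Pou4f1 at 0.13 and Neurod1 at 0.02 TPM. Neurod1, a proneural transcription factor, had 8 counts in all 12 libraries together and none in 6 of them, where 3 counts would be 0.101 to 0.179 CPM. Nsg1, Gap43, Ncam1 and Map2, which other embryonic cells also use, led the order. Apart from Isl1, which non-neuronal progenitors use too, the genes more restricted to neurons ran from Tubb3 down to Neurod1.

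**Figure D1:**
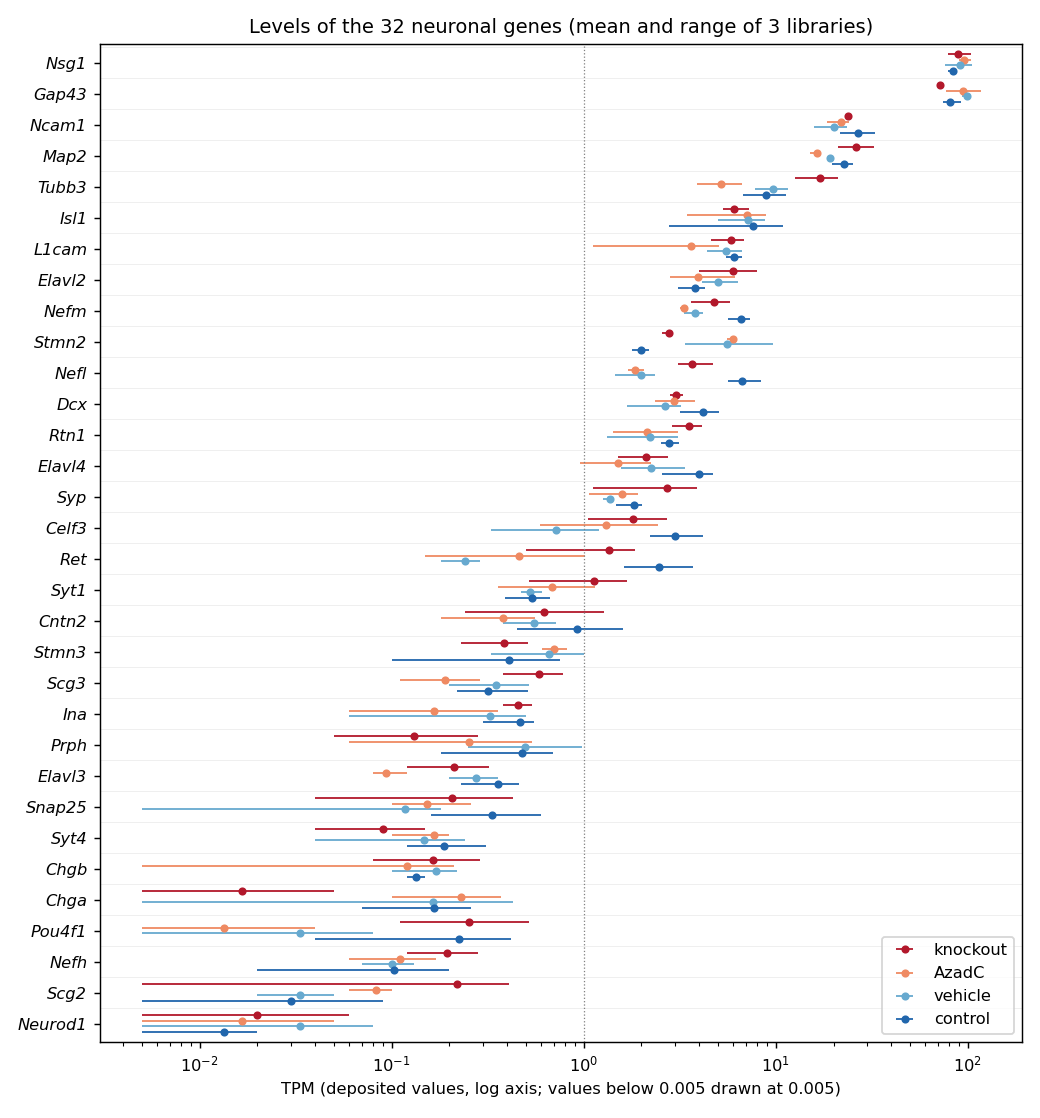
Mean (point) and range (bar) of the deposited TPM over 3 libraries for each of the 32 genes, by group, on a log axis, with values below 0.005 drawn at 0.005 and a dotted line at 1 TPM. Nsg1 and Gap43 stand highest, and 15 genes have a mean over all libraries below 1 TPM.

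Summed over the 32 genes, the level was 364, 380 and 380 CPM in the knockout, 334, 336 and 346 CPM in AzadC, 318, 359 and 344 CPM in the vehicle and 382, 398 and 391 CPM in the control libraries. In CPM every knockout sum lay below every control sum, the closest being 379.83 and 382.17 CPM. In deposited TPM the sums overlapped, at 267.19 to 285.37 in the knockout and 267.61 to 287.23 in the control. Most of the CPM sum is Ncam1, Nsg1, Gap43 and Map2, and none of these was called in the knockout against the control. In bulk tissue, fewer cells of a type and less RNA per cell cannot be told apart. Only 24 of the 32 genes passed the filter on low counts and were tested. Stmn3, Nefh, Snap25, Scg2, Chga, Chgb, Pou4f1 and Neurod1 did not pass, and their values are given without a test. A gene that passes only through the group where it is high had to differ, so the counts below describe the tested genes and are no test of the whole group.

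In the knockout against the control, 2 of the 24 were called higher, Tubb3 and Elavl2, and 1 lower, Nefl (edgeR quasi-likelihood test, Benjamini-Hochberg adjusted p below 0.05 over 17335 genes). That is 12.5% of those tested, close to the 14.3% of all genes called in that comparison (7.83% higher, 6.43% lower). The median log2 change of the 24 was -0.20, against 0.00 for all genes. Of the 24, 8 had a positive log2 change. Tubb3 and Nefl, both of the axonal cytoskeleton, were called in opposite directions.

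In AzadC against the vehicle no gene of the 24 was called by edgeR, where 0.0115% of all genes were (0.00577% in each direction). At an unadjusted p below 0.05 edgeR had 0 of the 24 higher and 3 lower, and 674 and 431 of all 17335 genes. At an adjusted p below 0.05 limma-voom called 0 of the 24 and DESeq2 called 1, Tubb3, where they called 0.0115% and 0.513% of all genes. The median log2 change was -0.15, against 0.00 for all genes. The vehicle against the control gave more: 1 gene was called higher, Stmn2, and 4 lower, Nefl, Nefm, Celf3 and Ret, which is 20.8% of the 24, against 3.52% of all genes (1.46% higher, 2.06% lower). The median log2 change there was -0.22. Because the vehicle libraries differed from the control libraries in 5 of the 24 genes, the knockout was also set against the vehicle, where 4 were called higher and none lower: Tubb3, Map2, Nefl and Ret, 16.7% of the 24 against 10.8% of all genes (6.7% higher, 4.13% lower). At an unadjusted p below 0.05 edgeR had 4 lower in that comparison. By adjusted p, limma-voom called none lower and DESeq2 called Gap43 lower, where they called 11% and 13.3% of all genes in either direction. Of all 17335 genes, limma-voom called 703 lower and DESeq2 called 932 lower. The knockout's 2 comparisons share its libraries, and the comparisons of the knockout and the vehicle with the control share the control libraries, so their values are set side by side and not counted as separate evidence. Whether the vehicle's own treatment or another difference between these sets of embryos goes with the vehicle's values was not tested.

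**Figure D2:**
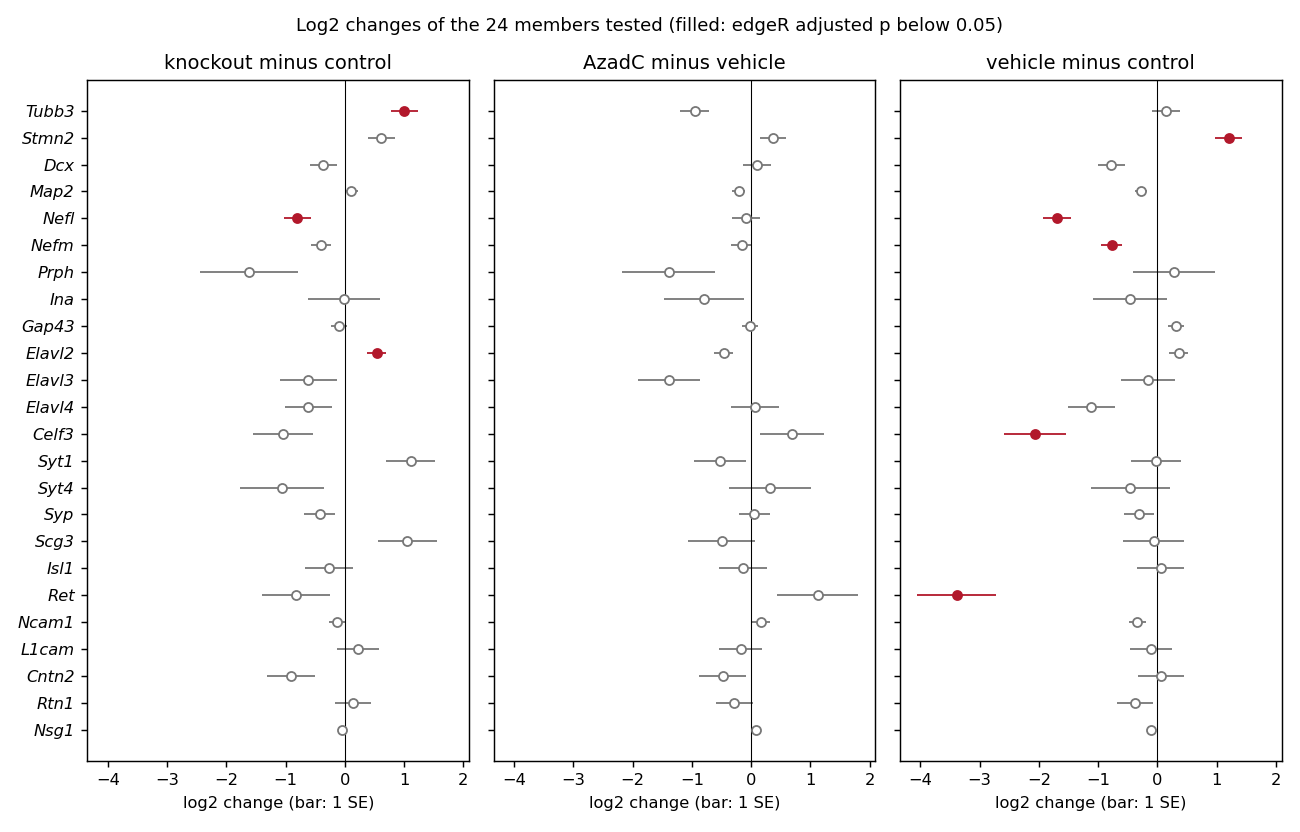
Log2 change (point) with 1 SE (bar) for the 24 tested genes in 3 comparisons, filled where the edgeR adjusted p was below 0.05. The filled points are Tubb3, Nefl and Elavl2 in the knockout against the control, none in AzadC against the vehicle, and Stmn2, Nefl, Nefm, Celf3 and Ret in the vehicle against the control.

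A test of the difference between the knockout effect and the AzadC effect, (knockout minus control) minus (AzadC minus vehicle), called 2 of the 24, Tubb3 and Elavl2, both with the knockout effect above the AzadC effect. That is 8.33% of those tested, against 4.4% of all genes (2.2% in each direction). Both had moved up in the knockout and had lower values in every AzadC library than in any vehicle library. Groups that did not overlap were counted too. All knockout libraries lay above all control libraries for Tubb3, Stmn2, Elavl2 and Scg3 and below them for Dcx, Nefl, Syp and Cntn2, 4 of 24 each way, where 16.9% and 15.1% of all tested genes did so. All AzadC libraries lay below all vehicle libraries for Tubb3, Elavl2 and Elavl3, and above them for none, where 5.76% and 6.1% of all tested genes did so. All vehicle libraries lay above all control libraries for 3 of the 24 (Stmn2, Gap43 and Elavl2) and below them for 9 (Dcx, Map2, Nefl, Nefm, Elavl4, Celf3, Syp, Ret and Nsg1), where 11.2% and 11.5% of all tested genes did so. All knockout libraries lay above all vehicle libraries for 7 (Tubb3, Dcx, Map2, Nefl, Elavl4, Scg3 and Ret) and below them for 2 (Stmn2 and Gap43), where 16% and 14.4% of all tested genes did so. Scg3 passed the filter only through its knockout libraries, so its separation in both knockout comparisons was favoured by the filter.

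Among the cytoskeletal and axonal genes, Tubb3 was called higher and Nefl lower in the knockout against the control, while both were called higher in the knockout against the vehicle. Tubb3 encodes the neuronal class III beta-tubulin of axon microtubules. It had 18.4, 22.7 and 13.5 CPM in the knockout, 4.1, 5.33 and 5.98 CPM in AzadC, 8.04, 12.1 and 9.92 CPM in the vehicle and 11.7, 6.9 and 8.5 CPM in the control libraries. The knockout libraries were the highest of all and the AzadC libraries the lowest of all, with no overlap with the other groups. The mean was 18.2 ± 4.59 CPM in the knockout, 5.14 ± 0.95 CPM in AzadC, 10.02 ± 2.02 CPM in the vehicle and 9.03 ± 2.44 CPM in the control (SD, n = 3 each). The log2 change was 1.01 ± 0.24 (SE) in the knockout against the control (edgeR adjusted p = 0.0121) and 0.85 ± 0.23 against the vehicle (edgeR adjusted p = 0.0328). The call against the vehicle was lost without knockout 1 (0.0704), knockout 2 (0.163), vehicle 1 (0.103) or vehicle 3 (edgeR adjusted p = 0.104). Without knockout 2 the edgeR adjusted p against the control was 0.0683, and without control 2 it was 0.0572. In AzadC against the vehicle the log2 change was -0.95 ± 0.25, which edgeR did not call (adjusted p = 0.381), while DESeq2 (adjusted p = 0.0323) and edgeR without the filter on low counts (adjusted p = 0.0149) did. The difference between both effects was 1.96 ± 0.34 on the log2 scale (edgeR adjusted p = 0.00689), and it was called in every fit that left out a library.

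The Tubb3 start region is shown because this gene moved most in the difference, and because Dnmt1 acts on CpG sites, which stand in capitals. Methylation itself was not measured. The windows run from 250 bases before to 50 after a RefSeq start (GRCm38.p6), 5′ to 3′ on the gene's strand. Elavl2, the other gene called higher, has windows at 3 groups of starts, of which the outer ones are shown, and Dcx is a gene with few CpG sites. They are Tubb3 at chr8:123411303-123411602 (plus strand, 26 CpG), Elavl2 at chr4:91371991-91372290 (minus strand, 27 CpG) and at chr4:91399935-91400234 (minus strand, 10 CpG), and Dcx at chrX:143933075-143933374 (minus strand, 3 CpG). The 2 overlapping Elavl2 windows of the middle group hold 19 and 18 CpG.
Tubb3: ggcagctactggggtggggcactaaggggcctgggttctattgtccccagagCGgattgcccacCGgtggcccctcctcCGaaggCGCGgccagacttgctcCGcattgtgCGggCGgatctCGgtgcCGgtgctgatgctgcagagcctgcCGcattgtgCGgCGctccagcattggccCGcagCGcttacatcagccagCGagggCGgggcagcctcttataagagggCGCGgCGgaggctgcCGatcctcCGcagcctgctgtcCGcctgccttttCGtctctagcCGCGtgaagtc
Elavl2, first window: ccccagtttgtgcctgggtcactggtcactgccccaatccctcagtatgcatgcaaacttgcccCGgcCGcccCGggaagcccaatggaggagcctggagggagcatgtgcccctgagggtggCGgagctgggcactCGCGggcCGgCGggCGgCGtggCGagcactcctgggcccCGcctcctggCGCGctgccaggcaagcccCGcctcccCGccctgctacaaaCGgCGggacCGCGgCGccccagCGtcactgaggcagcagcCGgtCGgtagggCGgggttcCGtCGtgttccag
Elavl2, last window: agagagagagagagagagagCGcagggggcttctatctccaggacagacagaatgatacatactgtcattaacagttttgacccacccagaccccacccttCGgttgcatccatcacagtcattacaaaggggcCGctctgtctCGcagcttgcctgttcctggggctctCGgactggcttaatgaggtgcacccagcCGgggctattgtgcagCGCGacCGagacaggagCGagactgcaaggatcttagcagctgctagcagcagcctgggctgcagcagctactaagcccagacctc
Dcx: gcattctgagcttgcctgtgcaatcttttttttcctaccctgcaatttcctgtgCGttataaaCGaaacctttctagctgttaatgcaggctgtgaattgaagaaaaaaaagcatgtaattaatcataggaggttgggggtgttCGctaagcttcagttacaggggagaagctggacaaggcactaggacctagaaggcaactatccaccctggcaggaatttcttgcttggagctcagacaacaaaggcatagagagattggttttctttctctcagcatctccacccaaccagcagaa

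Tubb3 and the first Elavl2 window hold dense CpG with an observed over expected ratio of 0.765 and 0.688, and the Dcx window holds a ratio of 0.201. Of the 32 genes, 22 matched the RefSeq promoter table, with 41 windows, some of which overlap. Their median ratio was 0.657, against 0.384 over all 32851 windows, and 51.2% of the neuronal windows were above 0.6, against 35.8% of all. The neuronal windows ran from CpG-poor ones such as Dcx to that of Pou4f1, with 57 CpG sites. Tubb3 and Elavl2 lay within this range, which is so wide that their place in it decides nothing. Nefl, Nefm, Stmn2 and Ret, also called in a comparison, had no window.

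Nefl encodes the light neurofilament chain, which sets axon calibre together with Nefm and Nefh. Nefl had 6.3, 6.5 and 9.72 CPM in the knockout, 3.55, 3.57 and 4.17 CPM in AzadC, 2.91, 4.72 and 4.32 CPM in the vehicle and 11.4, 11.7 and 16.2 CPM in the control libraries. The control libraries were the highest, the knockout libraries lay between, and AzadC and vehicle overlapped at the bottom. It fell by 0.80 ± 0.22 (SE, log2) in the knockout against the control (edgeR adjusted p = 0.03) and fell by 1.70 ± 0.23 in the vehicle against the control (edgeR adjusted p = 0.00312). Against the vehicle, the knockout was higher by 0.90 ± 0.23 (edgeR adjusted p = 0.0247), so the direction of Nefl in the knockout depends on which wild type group it is set against. The call against the vehicle was lost without knockout 3 (0.102), vehicle 1 (0.0777) or vehicle 3 (0.063) and in the fit on those 2 groups alone (edgeR adjusted p = 0.0513). The vehicle's difference from the control was called in every fit. The knockout's was not called without knockout 1 (edgeR adjusted p = 0.108), knockout 2 (0.122), control 2 (0.0508) or control 3 (0.112), nor when fitted on its own 2 groups (0.0531), all by edgeR adjusted p.

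Nefm, the medium chain, had 11.6, 7.38 and 9.84 CPM in the knockout, 6.86, 6.91 and 6.28 CPM in AzadC, 7.61, 8.26 and 6.45 CPM in the vehicle and 13.4, 10.9 and 13.9 CPM in the control libraries. Its order of groups was that of Nefl. The vehicle fell by 0.77 ± 0.18 (log2) against the control (edgeR adjusted p = 0.0311), and the knockout's -0.40 ± 0.18 was not called (edgeR adjusted p = 0.151). The vehicle's call was lost without control 1, control 3, vehicle 1 or vehicle 3 (edgeR adjusted p = 0.0694, 0.0921, 0.0984 and 0.124). Nefl and Nefm share exonic bases on opposite strands of chromosome 14, and both had fractional counts in 7 libraries. The sources used here do not state whether counting used strand, so reads of one cannot be told apart from reads of the other where they overlap. Nefh, the heavy chain, had 81 counts in all and between 0.0571 and 0.685 CPM.

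**Figure D3:**
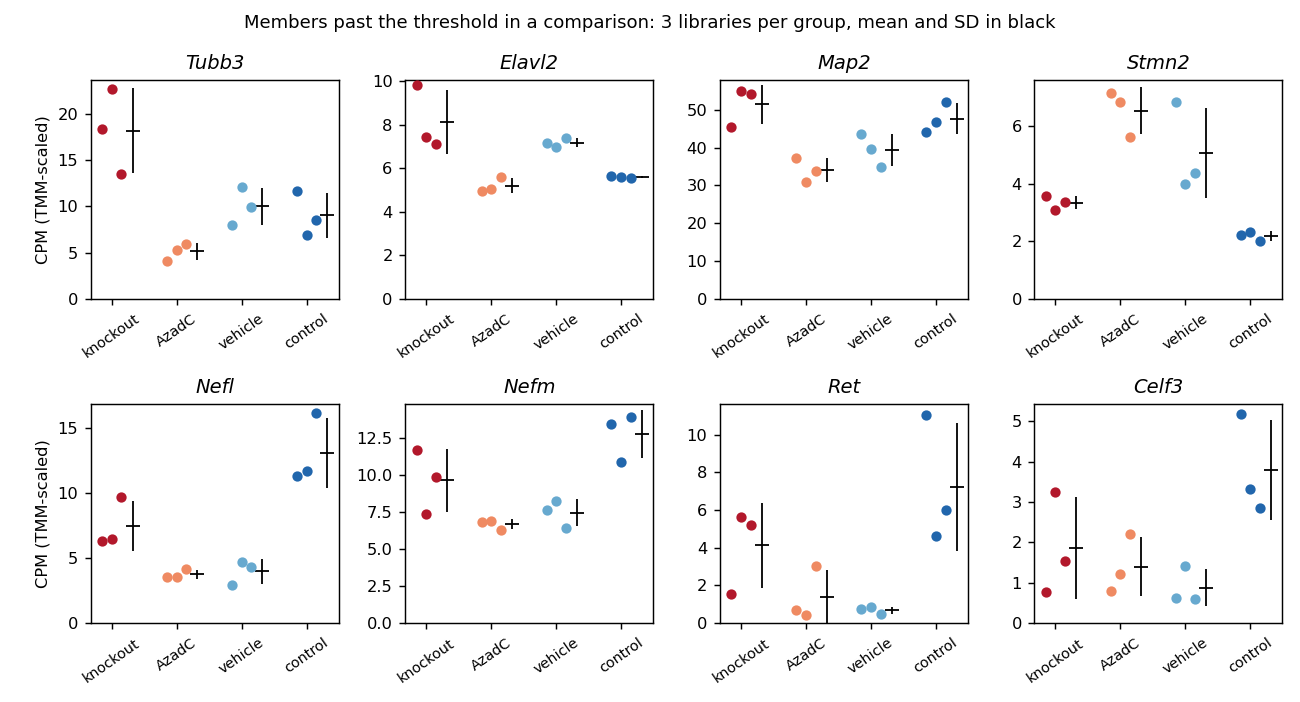
CPM of the 8 genes called in at least 1 comparison of groups, 1 point per library, with the mean and SD of 3 libraries in black. Tubb3 is highest in the knockout and lowest in AzadC, Nefl and Nefm are highest in the control, and Ret is low in all 3 vehicle libraries.

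Stmn2, a microtubule-destabilizing protein of growth cones, had 3.56, 3.1 and 3.38 CPM in the knockout, 7.17, 6.84 and 5.64 CPM in AzadC, 6.87, 3.98 and 4.4 CPM in the vehicle and 2.21, 2.34 and 2 CPM in the control libraries. The control libraries were the lowest of all 12 and the AzadC and vehicle libraries the highest. It rose by 1.20 ± 0.23 (log2) in the vehicle against the control (edgeR adjusted p = 0.015), a call lost without vehicle 1 (0.0615) and in the fit on those 2 groups alone (edgeR adjusted p = 0.0509). The knockout's log2 change of 0.61 ± 0.23 against the control was not called (edgeR adjusted p = 0.0956), although its libraries did not overlap with the control libraries. Stmn3, a relative of Stmn2, had 87 counts in all.

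Dcx, which bundles microtubules in young migrating neurons, had 15.3, 14.9 and 15.3 CPM in the knockout, 17.3, 8.9 and 10.9 CPM in AzadC, 7.98, 13.1 and 12.9 CPM in the vehicle and 16.1, 20.3 and 22.5 CPM in the control libraries. Every knockout and vehicle library lay below every control library, and AzadC 1 lay within the control range. The log2 change was -0.37 ± 0.23 in the knockout (edgeR adjusted p = 0.325) and -0.78 ± 0.23 in the vehicle (edgeR adjusted p = 0.0786), neither called. The vehicle's change was called by DESeq2 (adjusted p = 0.0128), and by edgeR without the filter (adjusted p = 0.00369) or without AzadC 1 (adjusted p = 0.0459). Map2, a microtubule-associated protein of dendrites, had 45.5, 54.8 and 54 CPM in the knockout, 37.3, 30.9 and 33.7 CPM in AzadC, 43.5, 39.5 and 35 CPM in the vehicle and 44, 46.8 and 52.1 CPM in the control libraries. The knockout overlapped with the control (log2 change 0.11 ± 0.11, edgeR adjusted p = 0.551) and was higher than the vehicle by 0.39 ± 0.11 (edgeR adjusted p = 0.0334). That call was lost without knockout 2 (0.142), knockout 3 (0.107), vehicle 2 (0.0831) or vehicle 3 (0.148), each an edgeR adjusted p.

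Gap43, a membrane protein of growing axons, was the second most abundant of the 32 by TPM. It had 58.3, 54.2 and 53.9 CPM in the knockout, 58.9, 91.8 and 68.2 CPM in AzadC, 69.4, 74.9 and 77.3 CPM in the vehicle and 56.2, 68.2 and 53.7 CPM in the control libraries. The knockout overlapped with the control (log2 change -0.10 ± 0.13, edgeR adjusted p = 0.695) and lay below every vehicle library. Against the vehicle its log2 change of -0.41 ± 0.13 was not called by edgeR (adjusted p = 0.0678) and was by DESeq2 (adjusted p = 0.0277). Of the other intermediate filament genes, Prph, the peripherin of peripheral neurons, had 94 counts in all and Ina, the internexin, about 200. Their log2 changes in the knockout, -1.62 ± 0.83 and -0.01 ± 0.61, were not called (edgeR adjusted p = 0.229 and 0.996).

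Of the RNA-binding proteins of the nervous system, Elavl2 was called in the knockout against the control, and Elavl3, Elavl4 and Celf3 were not. Elavl2, a neuronal Hu protein that stabilizes and splices mRNA, had 9.82, 7.43 and 7.11 CPM in the knockout, 4.96, 5.03 and 5.61 CPM in AzadC, 7.18, 6.97 and 7.38 CPM in the vehicle and 5.66, 5.59 and 5.53 CPM in the control libraries. The control libraries had an SD of 0.0653 CPM, and every knockout and vehicle library lay above them. It rose by 0.54 ± 0.16 (log2) in the knockout against the control (edgeR adjusted p = 0.0377), while the knockout overlapped with the vehicle (0.18 ± 0.16, edgeR adjusted p = 0.529). The call against the control was not kept without knockout 1 (0.171), without the filter (0.123) or in the fit on the 2 groups alone (edgeR adjusted p = 0.0904), and 6 of the 12 fits that left out a library kept it: those without knockout 1 or 2, any control library or vehicle 3 did not. In AzadC against the vehicle the log2 change was -0.46 ± 0.16 (edgeR adjusted p = 0.633). The difference between the effects was 0.998 ± 0.225 (edgeR adjusted p = 0.026) and was called in 7 of the 12 fits that left out a library, though not without knockout 1, control 2, AzadC 1, vehicle 1 or vehicle 3 (edgeR adjusted p = 0.0556 to 0.0664).

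Elavl4, another Hu gene, had 2.97, 4.43 and 3.14 CPM in the knockout, 2.29, 1.33 and 4.04 CPM in AzadC, 2.17, 2.67 and 2.62 CPM in the vehicle and 7.87, 2.72 and 5.59 CPM in the control libraries. Its control libraries spread widely, and its log2 changes were -0.62 ± 0.40 in the knockout against the control (edgeR adjusted p = 0.339) and -1.11 ± 0.40 in the vehicle against the control (edgeR adjusted p = 0.146). Elavl3 stayed below 1.15 CPM in every library, with a log2 change in the knockout of -0.62 ± 0.48 (edgeR adjusted p = 0.445). Celf3, a splicing regulator of the nervous system, had 0.777, 3.25 and 1.54 CPM in the knockout, 0.788, 1.21 and 2.2 CPM in AzadC, 0.619, 1.41 and 0.605 CPM in the vehicle and 5.19, 3.33 and 2.85 CPM in the control libraries. It fell by 2.07 ± 0.53 (log2) in the vehicle against the control (edgeR adjusted p = 0.0491), a call that 4 of 12 fits without a library kept, and it was not kept without knockout 3, control 1, control 2, control 3, AzadC 1, AzadC 2, vehicle 1 or vehicle 3 (edgeR adjusted p up to 0.169). Its knockout change, -1.04 ± 0.50, was not called (edgeR adjusted p = 0.199).

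Ret, the receptor through which GDNF family factors act on autonomic, enteric and some sensory neurons, showed the widest change of the 24 in the vehicle. It had 1.55, 5.61 and 5.21 CPM in the knockout, 0.709, 0.424 and 3.04 CPM in AzadC, 0.742, 0.835 and 0.484 CPM in the vehicle and 11.1, 4.64 and 5.99 CPM in the control libraries. The vehicle libraries lay below every knockout and control library, while single libraries of the knockout and AzadC stood apart from their own group. Ret fell by 3.39 ± 0.66 (log2) in the vehicle against the control (edgeR adjusted p = 0.0177), a call lost without vehicle 1 (0.077) or vehicle 3 (edgeR adjusted p = 0.0841). The knockout was higher than the vehicle by 2.57 ± 0.66 (edgeR adjusted p = 0.025), but limma-voom did not call it (adjusted p = 0.0989). That call was also lost without knockout 2 (0.0982), knockout 3 (0.0675) or any of the vehicle libraries (0.0613, 0.0617 and 0.106), all edgeR adjusted p. Against the control the knockout's -0.82 ± 0.58 was not called (edgeR adjusted p = 0.391).

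Genes of the synaptic vesicle gave no call in any comparison. Syt1, the calcium sensor of fast transmitter release, had 1.55, 5.02 and 3.5 CPM in the knockout, 1.58, 0.606 and 1.04 CPM in AzadC, 1.36, 1.77 and 1.41 CPM in the vehicle and 1.94, 1.57 and 1.08 CPM in the control libraries. Knockout 2 and knockout 3 were above all other libraries, while knockout 1 lay among the wild type ones. The log2 change against the control was 1.11 ± 0.42 (edgeR adjusted p = 0.0963), and without knockout 1 it was 1.46 (edgeR adjusted p = 0.0282). Syp, a vesicle membrane protein, had 1.74, 2.02 and 1.84 CPM in the knockout, 1.65, 2.79 and 1.84 CPM in AzadC, 2.1, 1.9 and 2.06 CPM in the vehicle and 3.01, 2.34 and 2.11 CPM in the control libraries. The knockout lay below every control library, with a log2 change that was not called (-0.42 ± 0.26, edgeR adjusted p = 0.321). Syp overlaps an antisense gene and had fractional counts in 10 libraries. Syt4 was below 0.716 CPM in every library, and Snap25, a SNARE protein of vesicle fusion, had 49 counts in all.

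The secretory granule genes Scg2, Chga and Chgb had 33, 40 and 65 counts over all libraries and were not tested. Scg3, a granule protein that binds chromogranin A, had 0.502, 0.984 and 0.533 CPM in the knockout, 0.158, 0.242 and 0.234 CPM in AzadC, 0.247, 0.45 and 0.202 CPM in the vehicle and 0.268, 0.46 and 0.228 CPM in the control libraries. All knockout libraries were above all others, on 101 counts in total, and Scg3 passed the filter only through them. The log2 change of 1.05 ± 0.49 against the control was not called (edgeR adjusted p = 0.184). Scg2 counts were 19 in the knockout, 7 in AzadC, 3 in the vehicle and 4 in the control, and 12 of them came from 1 library.

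Of the transcription factors, Isl1, which specifies sensory and motor neurons, had 6.94, 5.31 and 9.13 CPM in the knockout, 4.57, 9.81 and 9.62 CPM in AzadC, 10.4, 6.36 and 10 CPM in the vehicle and 11.2, 3.41 and 11.1 CPM in the control libraries. The groups overlapped throughout (log2 change -0.26 ± 0.40 in the knockout against the control, edgeR adjusted p = 0.728). Pou4f1, a factor of sensory ganglia, had 22 counts in the knockout, 3 in AzadC, 8 in the vehicle and 15 in the control. These are too few for a statement on a difference.

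The adhesion molecules gave no call in any comparison. Ncam1 had 77.4, 81.6 and 80.9 CPM in the knockout, 81.6, 68.3 and 83.1 CPM in AzadC, 55.1, 81 and 70.7 CPM in the vehicle and 72.3, 106.9 and 83.4 CPM in the control libraries. It was not called in the knockout (log2 change -0.13 ± 0.15, edgeR adjusted p = 0.618). L1cam, an adhesion molecule of axon bundles, was not called either (0.22 ± 0.35, edgeR adjusted p = 0.74), and AzadC 2, at 3.63 CPM, was its lowest library. Cntn2, a contactin of early axons, had 1.1, 0.984 and 1.6 CPM in the knockout, 2.52, 0.848 and 1.8 CPM in AzadC, 2.48, 3.18 and 1.49 CPM in the vehicle and 2.12, 1.84 and 2.97 CPM in the control libraries. The knockout lay below the control in every library, with a log2 change of -0.91 ± 0.41 that was not called (edgeR adjusted p = 0.162).

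The endosomal and reticular genes closed the list. Nsg1, an endosomal protein of neurons and the most abundant member by TPM, had 83.4, 76.6 and 82.1 CPM in the knockout, 79.2, 84.6 and 81.6 CPM in AzadC, 75, 75 and 81.1 CPM in the vehicle and 84.5, 82.6 and 82 CPM in the control libraries. It had the smallest SE of the 24, with a log2 change in the knockout of -0.04 ± 0.06 (edgeR adjusted p = 0.702). It overlaps Stx18 on the other strand and had fractional counts in all 12 libraries. Rtn1, a reticulon of the endoplasmic reticulum, was not called (0.14 ± 0.30, edgeR adjusted p = 0.816).

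Beyond the 32, 169 further neuronal genes on 6 lists were examined, of which 129 passed the filter. In the knockout against the control 6 were called higher and 18 lower, where 7.83% and 6.43% of all genes were, with a median log2 change of -0.18. AzadC against the vehicle had none called (0.0115% of all genes). The vehicle against the control had 0 higher and 4 lower (1.46% and 2.06% of all genes), and the knockout against the vehicle 5 higher and 7 lower (6.7% and 4.13% of all genes). The difference between the effects had 4 called each way (2.2% of all genes each way). Among the transmitter and peptide genes, 3 of 11 tested were called higher and 2 lower in the knockout against the control, where 7.83% and 6.43% of all genes were. Of these, Tac1 and Nts passed the filter only through the group where each was high, so the counts are no test of the list. The genes called higher were Calca, Tac1 and Ddc, an enzyme of monoamine synthesis that is named after its value was seen (0.96 ± 0.29, edgeR adjusted p = 0.0406). The Ddc call was lost with the replicate number as a block (0.0502) or without AzadC 1 (edgeR adjusted p = 0.0526). It was also lost without knockout 1 (0.0926), knockout 2 (0.178), control 2 (0.148) or control 3 (0.086), all edgeR adjusted p. Calca, which encodes the peptide CGRP, had 11.1, 6.89 and 4.98 CPM in the knockout, 1.42, 1.33 and 1.9 CPM in AzadC, 2.41, 2.41 and 1.29 CPM in the vehicle and 1.7, 1.07 and 0.171 CPM in the control libraries. The knockout libraries were the highest of all, and Calca rose by 2.89 ± 0.52 (log2) against the control (edgeR adjusted p = 0.00247). Without knockout 1, the highest, it was 2.52 (edgeR adjusted p = 0.0121).

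Tac1, the precursor of substance P, had 1.42, 2.02 and 0.711 CPM in the knockout, 0, 0.0606 and 0 CPM in AzadC, 0, 0.0321 and 0.0807 CPM in the vehicle and 0.209, 0.153 and 0.0571 CPM in the control libraries. It rose by 3.17 ± 0.64 (log2) against the control (edgeR adjusted p = 0.0055), on 100 counts in all, and passed the filter only through its knockout libraries. P2rx3, an ATP-gated channel of sensory neurons, had 2.92, 4.58 and 2.84 CPM in the knockout, 0.709, 0.545 and 0.434 CPM in AzadC, 0.433, 1.74 and 0.847 CPM in the vehicle and 0.686, 0.46 and 0.742 CPM in the control libraries. It rose by 2.45 ± 0.44 (log2) against the control (edgeR adjusted p = 0.00269), and its difference from the AzadC effect was called as well (3.38 ± 0.65, edgeR adjusted p = 0.0122). Calca and P2rx3 were called against the control in all 21 other fits. The 2 transmitter and peptide genes called lower were Slc5a7, the choline transporter of cholinergic neurons (-1.72 ± 0.51, edgeR adjusted p = 0.0374), and Nts, the neurotensin precursor (-3.24 ± 0.90, edgeR adjusted p = 0.029). Nts had 51 counts in all, mostly in the control libraries, through which it passed the filter, and DESeq2 did not call it (adjusted p = 0.0624). Leaving out any 1 of the knockout or control libraries ended the Nts call, and leaving out knockout 1, knockout 2 or control 3 ended that of Slc5a7 (edgeR adjusted p = 0.108, 0.104 and 0.165).

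**Figure D4:**
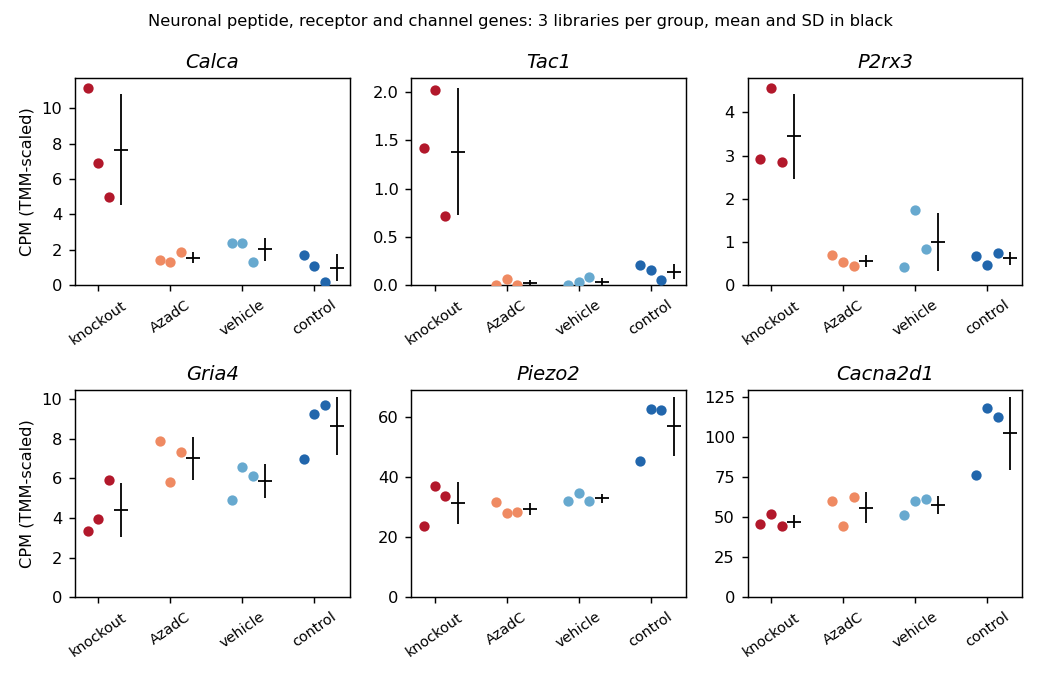
CPM of 6 peptide, receptor and channel genes, 1 point per library, with the mean and SD of 3 libraries in black. Calca, Tac1 and P2rx3 are higher in every knockout library than in every control library, while Gria4, Piezo2 and Cacna2d1 are lower.

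Of the 24 tested ion channel genes, 1 was called higher in the knockout against the control, P2rx3, and 4 lower, where 7.83% and 6.43% of all genes were. Cacna2d1, an auxiliary calcium channel subunit, had 45.6, 52.1 and 44.4 CPM in the knockout, 60.1, 44.8 and 63 CPM in AzadC, 51.3, 60.3 and 61.3 CPM in the vehicle and 76.6, 118.3 and 112.9 CPM in the control libraries. It fell by 1.11 ± 0.16 (log2) in the knockout against the control (edgeR adjusted p = 0.000488) and by 0.83 ± 0.16 in the vehicle (edgeR adjusted p = 0.0151). Piezo2, a touch-sensing channel, fell by 0.85 ± 0.15 in the knockout (edgeR adjusted p = 0.00251) and by 0.78 ± 0.15 in the vehicle (edgeR adjusted p = 0.0164). In both genes the control libraries stood above the other 9. Gria4, an AMPA-type glutamate receptor subunit, had 3.33, 3.94 and 5.93 CPM in the knockout, 7.88, 5.81 and 7.35 CPM in AzadC, 4.89, 6.56 and 6.13 CPM in the vehicle and 6.98, 9.23 and 9.7 CPM in the control libraries. It fell by 0.98 ± 0.23 (log2) in the knockout against the control (edgeR adjusted p = 0.0129), a call lost without knockout 1 (0.0553) or knockout 2 (edgeR adjusted p = 0.0616).

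Of the 26 tested genes of the vesicle cycle, 0 were called higher and 4 lower in the knockout against the control. This and the counts of the next lists stand beside 7.83% higher and 6.43% lower over all genes. Vamp2, a vesicle SNARE, fell by 0.33 ± 0.06 (log2, edgeR adjusted p = 0.00429), and Sv2a, a vesicle glycoprotein, fell by 0.69 ± 0.18 (edgeR adjusted p = 0.0204). Vamp2 held in every fit, and Sv2a was lost without knockout 1, knockout 2 or control 2 (edgeR adjusted p = 0.0827, 0.0781 and 0.0737). Of 37 tested axon and cytoskeleton genes, 2 were higher and 6 lower, among them Fez1, a kinesin adaptor (-0.55 ± 0.10, edgeR adjusted p = 0.00311), and Map1a (-0.47 ± 0.09, edgeR adjusted p = 0.00319). Nrcam, an axonal adhesion molecule, was higher by 1.19 ± 0.33 (edgeR adjusted p = 0.0298), without a call in the fit on those 2 groups (0.0519) or when knockout 2 (0.128), control 2 (0.0634) or control 3 (edgeR adjusted p = 0.074) was left out. Of 17 sensory and autonomic regulators, Runx1 was called, lower by 1.11 ± 0.26 (edgeR adjusted p = 0.0117), and it too was lower in the vehicle (-1.06 ± 0.26, edgeR adjusted p = 0.0389). The knockout call was lost without knockout 2 (0.0616) or control 2 (edgeR adjusted p = 0.0589). Of 14 neurotrophin and GDNF family genes Artn, a ligand that signals through Ret, was called, lower by 1.07 ± 0.33 (edgeR adjusted p = 0.0451), and it was lost in 14 of the other fits. Genes of these lists, called higher or lower, can also be expressed outside neurons, and which cells account for these values was not tested.

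The repressor complex of REST was examined because REST is known to act on many neuronal genes. All 18 of its listed genes were tested, and in the knockout against the control 0 were called higher and 4 lower, where 7.83% and 6.43% of all genes were, with a median log2 change of -0.02. Rest had 156, 139.8 and 149 CPM in the knockout, 182, 175 and 176 CPM in AzadC, 167, 166 and 170 CPM in the vehicle and 163, 165 and 181 CPM in the control libraries. It was lower by 0.19 ± 0.06 (log2, edgeR adjusted p = 0.0412), a call kept in 8 of 21 other fits. Ctdspl, a phosphatase that works with REST, fell by 0.61 ± 0.08 (edgeR adjusted p = 0.000293) and was called in every fit. In the 41 windows of the 22 matched genes, the central letters of the REST motif, CAGCACC, then any 2 bases, then GGACAG, were found in none on either strand, against 0.0365% of all windows. REST sites often lie outside these 300-base windows, so this says only that the letters are not in them. The E-box CAGCTG stood in 36.6% of the neuronal windows and 16.3% of all, CAGATG in 24.4% and 17.2%, and the TATA letters TATAAA in 17.1% and 13.6%. Overlapping windows of 1 gene share such matches.

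Markers of other cells moved in the same libraries. The 28 skeletal muscle markers summed to 1416, 666 and 242 CPM in the knockout, 71.1, 67.7 and 245 CPM in AzadC, 102, 567.5 and 69 CPM in the vehicle and 147, 77.9 and 20.1 CPM in the control libraries. Of 27 tested, 16 were called higher in the knockout against the control, where 7.83% of all genes were. Against the vehicle 0 were called higher, where 6.7% of all genes were. Myod1 had 35.7, 24.6 and 7.88 CPM in the knockout and 3.94, 2.83 and 0 CPM in the control libraries, and Myog had 94.7, 58.9 and 19.4 CPM in the knockout and 9.99, 7.93 and 0.742 CPM in the control libraries. Macrophage markers summed to 399, 383 and 363 CPM in the knockout and 111, 84.5 and 78 CPM in the control libraries. All 14 of 14 were called higher in the knockout against the control, where 7.83% of all genes were, Csf1r by 2.35 ± 0.14 (edgeR adjusted p = 1.78e-07). The part of either cell type in the neuronal values was not tested.

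Schwann and satellite glia, the companions of nerve fibres, summed to 227, 275 and 237 CPM in the knockout, 207, 115 and 198 CPM in AzadC, 165, 210 and 168 CPM in the vehicle and 272, 202 and 227 CPM in the control libraries. The knockout range overlapped the control range. Sox10, a defining glial factor, was not called (log2 change -0.18 ± 0.46, edgeR adjusted p = 0.849). Of the 15 tested, Cdh19 was called higher in the knockout against the control (1.32 ± 0.40, edgeR adjusted p = 0.0455, called in 10 of 21 other fits) and Pmp22 lower (-0.90 ± 0.17, edgeR adjusted p = 0.00326), where 7.83% and 6.43% of all genes were. Pmp22 was also lower in the vehicle against the control (-0.91 ± 0.17, edgeR adjusted p = 0.0134). Sox10 was lowest in AzadC 2 at 3.27 CPM, the library in which L1cam was also lowest.

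The 22 markers of brain and neural tube, a tissue close to the dissection, were low: 36, 25.9 and 21.5 CPM in sum in the knockout, 19.5, 16.8 and 22.3 CPM in AzadC, 20.9, 29.5 and 23.7 CPM in the vehicle and 17.9, 18.2 and 17.3 CPM in the control libraries. Only 8 were tested, and 1 was called higher in the knockout against the control, where 7.83% of all genes were. This was Lhx2 (3.82 ± 0.80, edgeR adjusted p = 0.00641), with 3.33, 1.67 and 1.01 CPM in the knockout and 0.149, 0.23 and 0 CPM in the control libraries. Lhx2 would not have passed the filter without its knockout libraries. Olig2, of the ventral neural tube, had 3 counts in all 12 libraries. Of the palatal mesenchyme markers 7 of 19 were called lower in the knockout against the control, where 6.43% of all genes were. Epcam, of epithelium, and Pecam1, of endothelium, were not called in the knockout (edgeR adjusted p = 0.61 and 0.916). In the vehicle against the control, 2 of 16 epithelial markers were called lower and 3 of 10 red cell markers higher. Over all genes, 2.06% were called lower and 1.46% higher. There, 2 of 14 macrophage and 1 of 19 palatal mesenchyme markers were also called higher, and 1 of 15 tested glial markers lower. No tested marker of muscle, endothelium or brain and neural tube was called. The part of these in the vehicle's neuronal values was not tested.

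**Figure D5:**
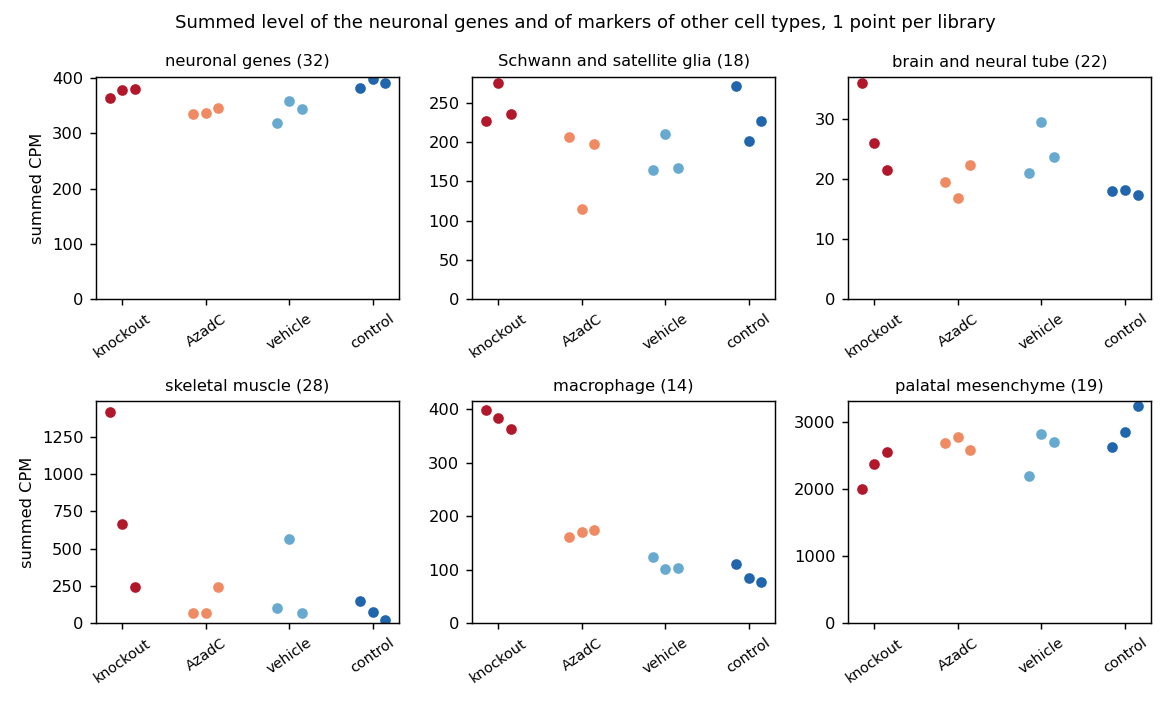
Summed CPM of the 32 neuronal genes and of 5 marker lists, 1 point per library, with the number of listed genes in brackets. The neuronal sum ranges from 318 to 398 CPM, while the muscle sum ranges from 20.1 to 1416 CPM and the macrophage sum is highest in the knockout.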

How the data were processed

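RNA from 12 libraries of palatal shelves was sequenced after a NuGen mRNA preparation, per the labels' protocols. The authors deposited expected counts and TPM per gene, 56691 genes a library, per the file headers, and the submitters' processing notes name STAR 2.7.0 and RSEM 1.3.1, FastQC and Trim Galore, DESeq2 and mm10. Reads that match several genes are divided among them by RSEM, so genes with overlapping exons are uncertain one by one. The sources used here state neither the annotation release nor the strand setting. Depth was 12640536 to 33113790 counts. The limit of 3 counts for values at 0 covers counting error only.

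The expected counts were rounded and analysed with edgeR 4.0.16 in R 4.3.3: filterByExpr by group (17335 genes), TMM, 1 mean per group over all 12 libraries, glmQLFit and glmQLFTest, with a threshold of 0.05 on the Benjamini-Hochberg adjusted p over all genes. The SE of a log2 change is its size over the root of its F statistic. The p-values measure the spread between libraries of a group. These are taken as separate pools of embryos, which the sources used here do not settle. No replicate pair agreed within sampling noise (chi-square per degree of freedom 6.92 to 21.5). The scripts were tested on simulated data.

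The 32 genes, the further lists and the tests were chosen with earlier results of these data known. Values per library are given for the 12 genes with the smallest adjusted p in any of 3 comparisons (knockout or vehicle against control, AzadC against vehicle), the 3 with the highest mean TPM and the highest of each role. Of other lists up to 4 genes with the smallest adjusted p in the knockout against the control were eligible, of which the text names a part, and some results are not reported here. Alternatives were DESeq2 1.42.0, limma-voom 3.58.1, other scalings, other filters, the replicate number as a block, only the groups compared, deposited TPM, and leaving out each library. Gene positions and exon overlaps came from GENCODE M21 and promoter windows from RefSeq (GRCm38.p6).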

Additional observations from a re-analysis of the deposited data

Results flagged for a closer look

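The knockout effect and the AzadC effect differed in 2 of the neuronal genes by a test of the difference itself. For Tubb3 the difference was 1.96 on the log2 scale (edgeR adjusted p = 0.00689), with a log2 change of 1.01 in the knockout against the control and -0.95 in AzadC against the vehicle. It was called in all 12 fits that left out a library. For Elavl2 the difference was 0.998 (edgeR adjusted p = 0.026), with a log2 change of 0.54 in the knockout and -0.46 in AzadC. It was called in 7 of those 12 fits. Neither AzadC change was called by edgeR (adjusted p = 0.381 for Tubb3 and 0.633 for Elavl2), though DESeq2 called that of Tubb3 (adjusted p = 0.0323). For Elavl2 every vehicle library lay above every control library (log2 change 0.36, edgeR adjusted p = 0.239), and the difference includes this gap. The knockout overlapped with the vehicle in Elavl2 (0.18, edgeR adjusted p = 0.529).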

How the results depend on the processing

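Every called change of a named neuronal gene kept its direction in every fit, and 12 of the 14 calls among the neuronal genes were called in at least 7 of 12 fits that left out a library. Counts of neuronal genes moved more. In the knockout against the control, 2 higher became 1 without the filter and 1 in the fit on those 2 groups, and 1 lower became 0 in that fit; without 1 library the counts ran from 0 to 3 higher and 0 to 1 lower. In AzadC against the vehicle, 0 lower became 1 by DESeq2 and 1 without the filter. In the vehicle against the control, 1 higher became 0 in the fit on those 2 groups and 4 lower became 7 without the filter; without 1 library they ran from 0 to 1 and 1 to 4. In the knockout against the vehicle, 0 lower became 1 (Gap43) by DESeq2, without scaling, without the filter and in the fit on 2 groups; without 1 library there were 0 to 4 higher and 0 to 1 lower. For the difference, 0 lower became 1 (Ret) without the filter, and without 1 library 1 to 2 were higher. No filter tested 30933 genes. Over all genes, DESeq2 called 89, 1325 and 1459 in AzadC against the vehicle, the vehicle against the control and the difference, where edgeR called 2, 610 and 763. The cause of these shifts was not tested.

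With the replicate number as a block, 1 neuronal gene was higher in the knockout against the control (Elavl2 lost, adjusted p = 0.0596) and 2 against the vehicle. Same-numbered knockout and control libraries correlated at 0.081 to 0.277, and all 6 correlated best with their own number, a hint from the data and not from the labels. The labels do not say that a number marks a litter, so the block is no main result. Depth limits the 15 genes below 1 TPM most.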
